A study of Mus musculus with 4 samples.

Results

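The genes of the neuropeptides PACAP (*Adcyap1*) and VIP (*Vip*) and of their receptors PAC1 (*Adcyap1r1*), VPAC1 (*Vipr1*) and VPAC2 (*Vipr2*) were followed through every annotated cell type and neuronal cluster of the mouse posterior hindbrain. These 5 genes, chosen by name, were among 32285 genes in the deposited single-nucleus count matrices. Levels were computed over the 39461 nuclei kept by the authors, which fall into 14 cell types and 184 clusters, and 12539 of these nuclei, in 134 clusters, are neurons.

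The series contains 4 libraries, 2 per group (C1 and C2 of control mice, A1 and A2 of AgRP-Gq;POMC-Gi mice), of a dissected block of hindbrain that includes the area postrema (AP) and the nucleus tractus solitarii (NTS). AgRP-Gq;POMC-Gi mice carry AgRP-IRES-Cre+/-;hM3DGqfl/-;POMC-Dre+/-;hM4DGifl/-, so that Cre, expressed from *Agrp*, turns on the activating receptor hM3DGq, and Dre, driven by *Pomc* sequences, turns on the inhibiting receptor hM4DGi. The labels call the controls WT, whereas the study's methods describe its control mice as carriers of both receptor alleles without Cre and Dre. All mice were adults of 12 to 20 weeks, both sexes were used, and every mouse had been injected with the receptor ligand CNO at 3 mg per kg and was killed 1 h later without access to food. Mice of a group were pooled, and no source used here says which mice entered which library. The p-values therefore measure only the spread between these libraries, which need not be a spread between mice. AgRP neurons lie in the hypothalamus, outside the sampled tissue, and whether any sampled nucleus carried an active receptor allele was not tested.

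PACAP and VIP are related peptides of the secretin family, cut from larger precursors and released from dense-core vesicles. PAC1 prefers PACAP, whereas VPAC1 and VPAC2 bind both peptides, and all of these receptors couple mainly to Gs, which raises cAMP through adenylyl cyclases. In the brainstem PACAP is known from autonomic and visceral sensory circuits and from responses to stress, and VIP is best known as a transmitter of peripheral autonomic neurons, cortical interneurons and the suprachiasmatic clock. Astrocytes and cells of the oligodendrocyte lineage are known to carry receptors of this family as well.

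All members are protein-coding genes on the plus strand of GRCm38 in GENCODE M21. *Adcyap1* spans chr17:93199017-93206537, *Vip* chr10:5639218-5647617, *Adcyap1r1* chr6:55451978-55501451, *Vipr1* chr9:121642716-121672954 and *Vipr2* chr12:116077726-116146261. *Vipr2* overlaps an antisense gene, *Gm20658*, on the minus strand (chr12:116102769-116138648). The 250 bases before the start of both ligand genes are shown because PACAP and VIP raise cAMP and both of these windows hold TGACG, the core of the cAMP response element. The sequences are RefSeq's on GRCm38.p6, 5′ to 3′ on the plus strand, with the longest run of letters that both share in capitals:
Adcyap1, chr17:93198767-93199016: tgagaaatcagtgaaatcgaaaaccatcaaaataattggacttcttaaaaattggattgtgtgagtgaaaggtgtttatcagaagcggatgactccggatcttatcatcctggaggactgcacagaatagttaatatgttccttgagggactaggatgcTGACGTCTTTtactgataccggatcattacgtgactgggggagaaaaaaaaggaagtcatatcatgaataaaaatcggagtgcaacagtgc
Vip, chr10:5638968-5639217: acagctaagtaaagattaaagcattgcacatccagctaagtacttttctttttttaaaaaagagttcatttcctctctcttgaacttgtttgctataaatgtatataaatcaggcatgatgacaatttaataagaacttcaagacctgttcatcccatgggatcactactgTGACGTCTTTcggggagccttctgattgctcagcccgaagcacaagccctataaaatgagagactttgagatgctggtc
The shared run TGACGTCTTT has 10 letters and lies 91 to 82 bases before the start of *Adcyap1* and 79 to 70 bases before that of *Vip*. On either strand it was present in 20 of 32851 promoter windows of the same length (0.0609%), among them those of *Adcyap1* and *Vip*, from which it was picked. How long a run other windows share was not measured, so this share does not say how particular the run is. The shorter TGACG, which the run contains, was in 17.8% of windows, among them those of *Adcyap1*, *Vip* and *Vipr1*. The full palindrome TGACGTCA was in 1.55% of windows and in none of the members' windows. *Adcyap1* has a second, overlapping window in this table (chr17:93198918-93199167), which also holds the run and is not printed. These are matches of letters, and binding was not measured.

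Levels are given as CPM, the UMIs (unique molecular identifiers, that is, counted molecules) of a gene per 1000000 UMIs of the same nuclei in a library, as mean ± SD of the 4 libraries. Neuronal UMIs summed to between 26860073 and 35583732 per library, and a median neuron held between 8252 and 9623.5. The share of neurons among nuclei was 25.4%, 27.2%, 38.0% and 36.5% in C1, C2, A1 and A2. A2 stood apart in *Xist*, a transcript of the inactive X chromosome of females, with 16.2 CPM in neurons against 319 to 541 in the other libraries, so A1 and A2, at 541 and 16.2 CPM, did not hold the same mixture of animals. Choroid plexus nuclei numbered 2 and 6 in C1 and A1 and 436 and 329 in C2 and A2, and *Ttr* of the choroid plexus followed them, with 1.49, 1003, 7.53 and 580 CPM in neurons of C1, C2, A1 and A2. C1 and C2 thus did not hold the same makeup of nuclei either. The members themselves were at mean levels of 0.29 to 1.25 CPM in choroid plexus nuclei, with no UMI in the few such nuclei of C1 and A1. In C2 and A2, *Adcyap1* was there at 3.09 and 1.92 CPM and *Adcyap1r1* at 1.54 and 3.20 CPM. The other members reached at most 1.28 CPM. Pairs of libraries shared 23 to 41 barcodes. Clusters and types had been built from expression, so the differences between them below are described and not tested.

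*Adcyap1*, which encodes the PACAP precursor, was mainly a neuronal transcript. Of its 1872 UMIs, 1595 (85.2%) were in neurons, where the level was 12.6 ± 2.47 CPM and 9.02% of nuclei held a UMI. C1, C2, A1 and A2 had 12.2, 11.4, 10.7 and 16.2 CPM. Oligodendrocytes, taken here as cells that should lack the peptide, had 3.51 ± 1.31 CPM and a UMI in 0.886% of nuclei, and astrocytes had 3.30 ± 1.80 CPM. By library, oligodendrocytes had 2.06, 2.93, 4.00 and 5.06 CPM in C1, C2, A1 and A2. The median neuron held 8704 UMIs and the median oligodendrocyte 2460. After each nucleus was thinned to 800 UMIs, the shares with an *Adcyap1* UMI were 1.22% in neurons and 0.309% in oligodendrocytes. The small immune type Ms4a4b.Immune had a higher mean, 14.4 CPM, but it came from 2 UMIs in a single library, and every other type but neurons had a mean of at most 7.63 CPM.

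Within neurons *Adcyap1* was concentrated in glutamatergic clusters. Clusters were called glutamatergic or GABAergic where the mean CPM of *Slc17a6* (the vesicular glutamate transporter VGLUT2) or *Slc32a1* (the vesicular GABA transporter) was at least 4-fold that of the other, with at least 20 UMIs. Of the 120 clusters in which no library had fewer than 5 nuclei, 61 were glutamatergic, 45 GABAergic, 7 mixed and 7 not called. *Adcyap1* was borne by 33 of the 120, that is, at least 10% of nuclei held a UMI and every library had at least 1. Of these 33, 32 were glutamatergic, and none was GABAergic or mixed. The remaining cluster was 116: Prph/Slc5a7, in which neither transporter gene reached 20 UMIs. Over all nuclei of each class, *Adcyap1* was at 21.7, 19.7, 18.1 and 27.4 CPM in glutamatergic neurons and at 2.29, 1.82, 1.58 and 2.20 CPM in GABAergic neurons of C1, C2, A1 and A2. The classes did not overlap. The ratio within a library ran from 9.47 to 12.5, a mean log2 ratio of 3.46 ± 0.17 (SD, n = 4). The mean in GABAergic neurons, 1.97 ± 0.33 CPM, was below that in oligodendrocytes, and the ranges over libraries overlapped.

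Among the 120 clusters, to which this and the following orders are limited, the highest *Adcyap1* levels were in 156: Ankfn1/Pou4f1, with 68.9, 114, 99.9 and 135 CPM in C1, C2, A1 and A2 (104.5 ± 27.8), and 47.9% of its 71 nuclei held a UMI (95% exact interval 35.9% to 60.1%). It was followed by 65: Eya1/Hs3st4 (80.4 ± 18.1 CPM), 155: Kcnh8/Arhgap6 (80.3 ± 32.3 CPM), 148: Ccdc172/Ebf2 (70.2 ± 38.4 CPM) and 160: Ebf2/Ism1 (66.6 ± 17.7 CPM). Cluster names are the authors' and give the strongest markers of each cluster. The ranges over libraries overlapped between each of these clusters and the next, so their order is not resolved. All of them had *Slc17a6* between 113 and 167 CPM.

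Among clusters with a familiar transmitter or hormone, 63: Ebf2/Th had *Adcyap1* at 65.9 ± 33.6 CPM. The preproglucagon cluster 109: Gcg/Reln was at 15.4 ± 8.26 CPM, and the area postrema cluster 97: Gfral/Sctr, which carries the GDF15 receptor gene *Gfral*, at 26.2 ± 5.28 CPM. The glycinergic and GABAergic cluster 82: Tal1/Nell1 had 2 UMIs in all. No *Adcyap1* UMI was seen in 13 of the 120 clusters. Of the 14 neuronal clusters with fewer than 5 nuclei in some library, 154: Olfr78/Calcr had the highest *Adcyap1* mean, 67.3 ± 57.1 CPM from 17 UMIs.

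**Figure D1:**
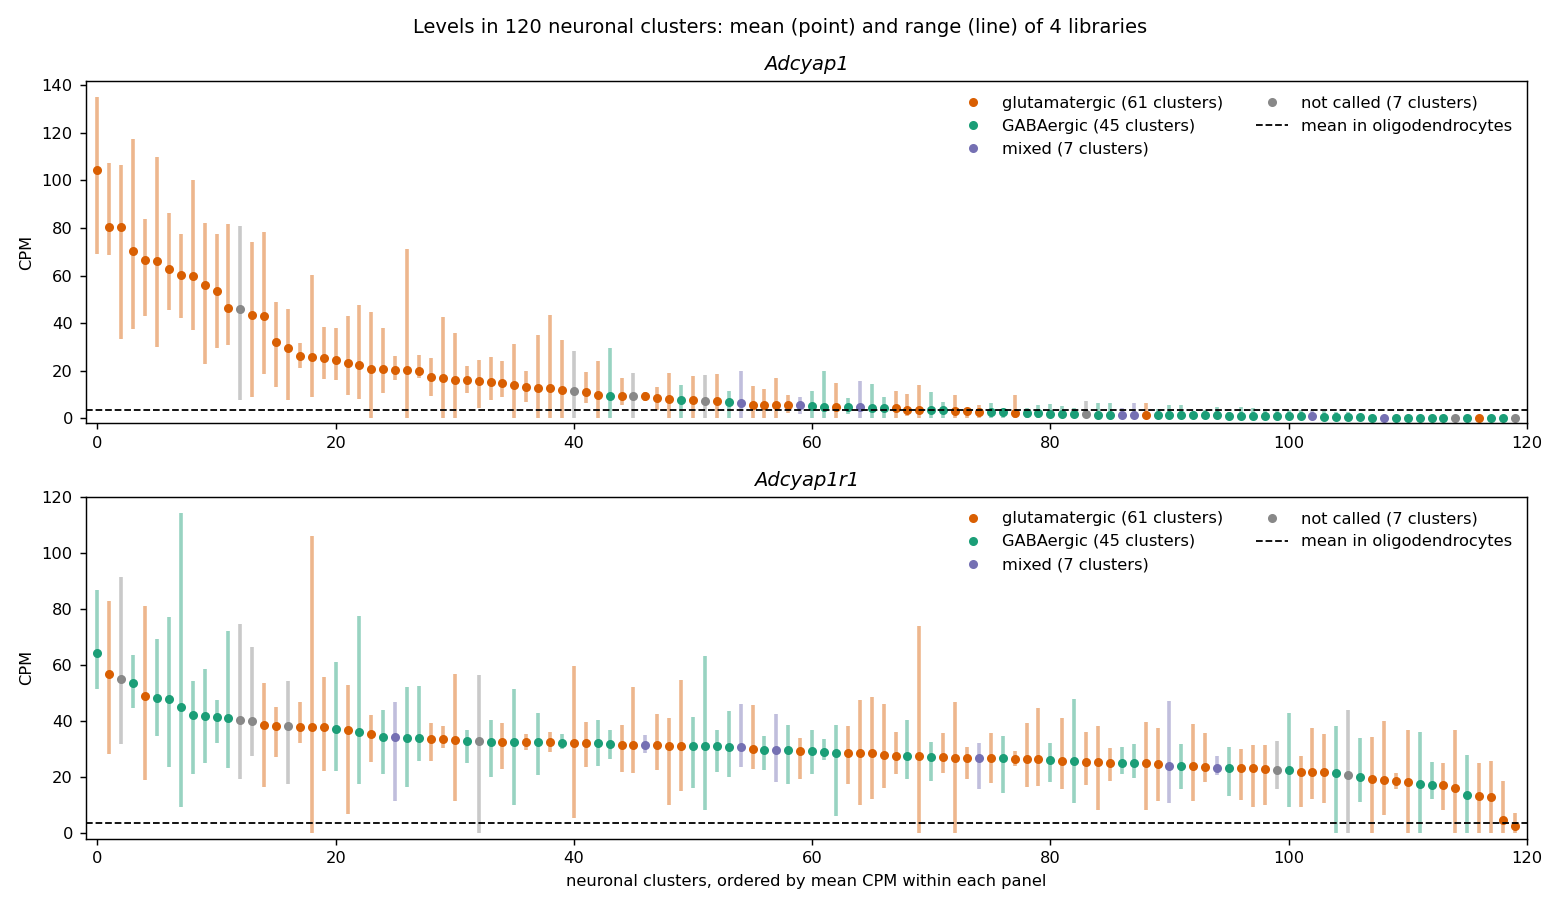
Mean (point) and range (line) of 4 libraries for *Adcyap1* and *Adcyap1r1* in CPM in 120 neuronal clusters, ordered by mean within each panel and coloured by transmitter class, with the mean in oligodendrocytes as a dashed line. *Adcyap1* falls from 104.5 CPM to 0 with glutamatergic clusters at the top, and *Adcyap1r1* is spread over both classes and lies above the oligodendrocyte level in 119 of 120 clusters.

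*Vip* was rare and narrowly placed. It had 332 UMIs in all nuclei and 237 in neurons, in 147 neurons. Over all neurons it was at 1.89 ± 0.73 CPM, which overlapped with 1.5 ± 0.63 CPM in astrocytes and 1.24 ± 0.36 CPM in oligodendrocytes, and after thinning to 800 UMIs the shares with a UMI were 0.167%, 0.206% and 0.119%. At this level the neuronal mean could not be told apart from background. Ms4a4b.Immune, Oligodendrocytes/OPC and endothelial nuclei had higher means (7.18, 3.51 and 2.14 CPM), but from 1, 2 and 2 UMIs and with libraries at 0. Cluster 28: Mecom/Sema3a, which is glutamatergic (*Slc17a6* 161 CPM), held 45.1% of the neuronal UMIs. It had 54.0, 24.2, 58.0 and 14 CPM from 21, 18, 60 and 8 UMIs in C1, C2, A1 and A2 (37.5 ± 21.8), and 21.6% of its 227 nuclei held a UMI. Every library of cluster 28 was thus well above the oligodendrocyte level, though the libraries differed among themselves within both groups.

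The other cluster that bore *Vip* was GABAergic, 95: Tfap2b/Esr1, with 30.8, 18.5, 12.4 and 10.8 CPM from 7, 6, 4 and 3 UMIs. Its *Gad2* and *Slc6a5* (glycine transporter) levels were 262 and 129 CPM. The next in order, 123: Reln/Pou4f1, 155: Kcnh8/Arhgap6 and 72: Ano2/Foxp2, had 7, 4 and 12 *Vip* UMIs and at least 1 library without any, and the 4 UMIs of cluster 155 came from 1 nucleus. The 10 clusters with most UMIs held 74.3% of neuronal *Vip*.

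*Adcyap1r1*, which encodes PAC1, was found in neurons and in glia. Its highest level was in tanycyte-like nuclei, with 133, 87.4, 112 and 156 CPM in C1, C2, A1 and A2 (122 ± 29.5), where 33.7% of 202 nuclei held a UMI. Oligodendrocyte precursors (OPC) were at 69.9 ± 5.63 CPM and astrocytes at 68.1 ± 5.18 CPM, and the libraries of these types overlapped each other but not those of tanycyte-like nuclei. Mural cells of the vessel wall had 35.6 ± 15.4 CPM and neurons 29.1 ± 1.04 CPM, again with overlapping ranges, and oligodendrocytes had 3.67 ± 0.64 CPM. The share of nuclei with a UMI was 23.8% in neurons, 23.3% in OPC and 20.3% in astrocytes, but neurons were deeper (median 8704 UMIs against 3728 and 3376). Thinned to 800 UMIs, the shares were 12.4% in tanycyte-like nuclei, 6.12% in OPC, 5.94% in astrocytes, 2.29% in neurons and 0.297% in oligodendrocytes. Of the defining tanycyte markers *Rax* was highest in tanycyte-like nuclei, at only 4.86 CPM, and *Col23a1* was highest in fibroblasts.

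Astrocytes differed among themselves in this receptor. Their clusters ran from 46.4 ± 13.4 CPM in cluster 21 to 117 ± 13.5 CPM in cluster 20, whose libraries did not overlap (26.7 to 56.8 against 99.7 to 132 CPM). Both clusters of tanycyte-like nuclei were high, at 132 ± 55.5 CPM in cluster 141 and 114 ± 26.2 CPM in cluster 61. The small type Oligodendrocytes/OPC, between precursors and oligodendrocytes in its name, was at 26.5 ± 12.8 CPM from 13 UMIs, between the levels of both.

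In neurons *Adcyap1r1* had 3632 UMIs and was present in every one of the 120 clusters. With all UMIs it was borne by 104 of them, but after thinning to 2000 UMIs by 4, against 33 and 6 for *Adcyap1*, so the order of the counts turned. The 104 were 51 glutamatergic, 42 GABAergic, 6 mixed and 5 not called clusters, and in 105 of the 120 the lowest library was above the highest library of oligodendrocytes. Glutamatergic neurons had 30.2, 27.6, 25.3 and 26.3 CPM and GABAergic neurons 30.9, 31.4, 31.3 and 32.4 CPM in C1, C2, A1 and A2. GABAergic neurons were higher in each of the 4 libraries, by little (mean log2 ratio of glutamatergic to GABAergic -0.21 ± 0.13). With 4 libraries an exact sign test could not reach p = 0.05, and none was made.

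Of the 120 clusters, the highest in *Adcyap1r1* were 163: Adamts18/Col25a1 (64.2 ± 15.5 CPM), 173: Mecom/Oprk1 (56.7 ± 28.5 CPM), 167: Tph2/Slc6a4 (55.2 ± 27.5 CPM), 41: Ryr1/Tfap2b (53.6 ± 9.87 CPM) and 146: Rxfp1/Ebf2 (49.0 ± 25.8 CPM). Their libraries overlapped, and without either control library cluster 173 came before 163. Cluster 167 holds serotonin neurons by its marker, with the synthetic enzyme gene *Tph2* at 1341 CPM, and its 18 *Adcyap1r1* UMIs were spread over all libraries. Clusters 163 and 41 are GABAergic and carry *Slc6a5* at 144 and 125 CPM. At the other end of the order stood 97: Gfral/Sctr with 2.53 ± 3.35 CPM from 3 UMIs in 101 nuclei, which did not exceed the oligodendrocyte level, and 148: Ccdc172/Ebf2 with 1 UMI. The clusters 63: Ebf2/Th, 82: Tal1/Nell1 and 109: Gcg/Reln lay close together, at 31.2, 28.9 and 31.7 CPM.

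**Figure D2:**
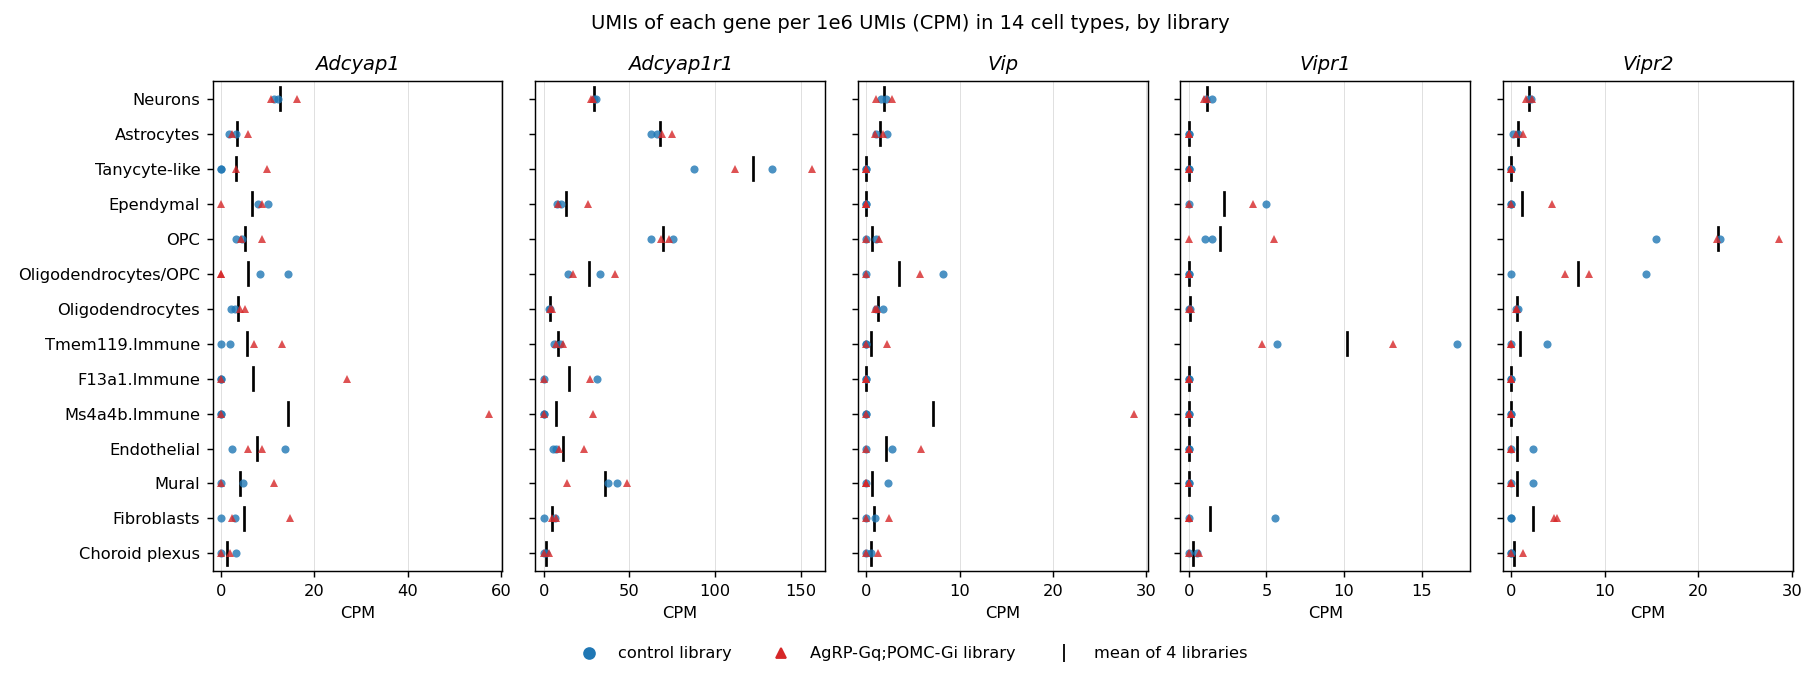
CPM of each member in 14 cell types, with a point for each control library, a triangle for each AgRP-Gq;POMC-Gi library and a bar at the mean of 4 libraries, each panel with its own axis. *Adcyap1r1* is highest in tanycyte-like nuclei, OPC and astrocytes, *Vipr2* in OPC and *Vipr1* in Tmem119.Immune nuclei, whereas single high points in small types rest on 1 or 2 UMIs.

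*Vipr1*, which encodes VPAC1, was the least detected member, with 178 UMIs. Its highest level was in microglia (the type Tmem119.Immune, with *Csf1r* at 906 CPM), at 17.3, 5.71, 4.72 and 13.1 CPM in C1, C2, A1 and A2 (10.2 ± 6.02) from 20 UMIs, and 1.96% of 969 nuclei held a UMI. Neurons had 1.17 ± 0.22 CPM, above oligodendrocytes, which had 2 UMIs in 16816 nuclei. Microglia had a median of 1871 UMIs per nucleus and neurons 8704, so the share of 1.06% in neurons is not comparable as it stands, and after thinning to 800 UMIs the shares were 0.619% in microglia and 0.0957% in neurons. No *Vipr1* UMI was found in 4378 astrocytes, which allows a share of up to 0.0685%, nor in 789 endothelial nuclei, which allows up to 0.38%. These limits are on nuclei with a UMI, at medians of 3375.5 and 1460 UMIs per nucleus, and not on nuclei that express the gene. No neuronal cluster bore *Vipr1*. Its highest means among the 120 were in 97: Gfral/Sctr (9.98 ± 13.4 CPM), 104: Gabra6/Fat2 (9.85 ± 6.97 CPM), 51: Bnc2/Ebf2 (6.52 ± 7.81 CPM), 60: Trhde/Kcnmb2 (5.54 ± 8.32 CPM) and 153: Lmo3/Cpne4 (5.47 ± 6.70 CPM), from 3 to 9 UMIs each, and their order is not resolved. Without C1 cluster 97 was at 3.46 CPM. Only cluster 51 had a UMI in every library.

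*Vipr2*, which encodes VPAC2, was a receptor of precursors and of few neurons. OPC (*Pdgfra* at 986 CPM) had 15.5, 22.4, 22.0 and 28.6 CPM in C1, C2, A1 and A2 (22.1 ± 5.37) from 69 UMIs, with a UMI in 7.27% of 784 nuclei. This range lay above that of every other type. Neurons had 1.92 ± 0.30 CPM, astrocytes 0.67 ± 0.41 CPM and oligodendrocytes 0.58 ± 0.08 CPM, and thinned to 800 UMIs the shares with a UMI were 1.53% in OPC, 0.223% in neurons and 0.0892% in oligodendrocytes. OPC thus carried UMIs of both *Adcyap1r1* and *Vipr2*, and 6 of *Vipr1*. The antisense gene *Gm20658* had 309 UMIs, 75 of them in OPC, and 74 of the 287 nuclei with *Vipr2* also held it. The sources used here do not give the counting's strand setting, so how UMIs of the shared stretch were divided is not known.

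In neurons 55.6% of *Vipr2* UMIs were in 10 clusters. The highest of the 120 was 104: Gabra6/Fat2, with 89.0, 66.2, 59.1 and 179 CPM in C1, C2, A1 and A2 (98.3 ± 55.3) from 6, 9, 6 and 6 UMIs, and 23.4% of its 94 nuclei held a UMI. It carries the granule cell marker *Gabra6* at 700 CPM and *Slc17a7* (the vesicular glutamate transporter VGLUT1) at 211 CPM, and since *Slc17a6* was only 37.0 CPM there its class was not called. *Gm20658* had 23 UMIs in this cluster. The next were 181: Sntb1/Cpne4 (47.1 ± 46.6 CPM), 116: Prph/Slc5a7 (30.7 ± 37.9 CPM), 147: Col5a2/Col6a1 (24.8 ± 26.0 CPM) and 97: Gfral/Sctr (11.8 ± 21.7 CPM), of which only cluster 116 had a UMI in every library and bore the gene. Summed over classes, *Vipr2* was at 2.28 ± 0.84 CPM in glutamatergic neurons, 0.40 ± 0.34 CPM in GABAergic neurons and 14.7 ± 6.51 CPM in clusters not called. The ratio of glutamatergic to GABAergic neurons ran from 1.77 to 24.6 over libraries, on 2 to 12 UMIs in the GABAergic class.

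**Figure D3:**
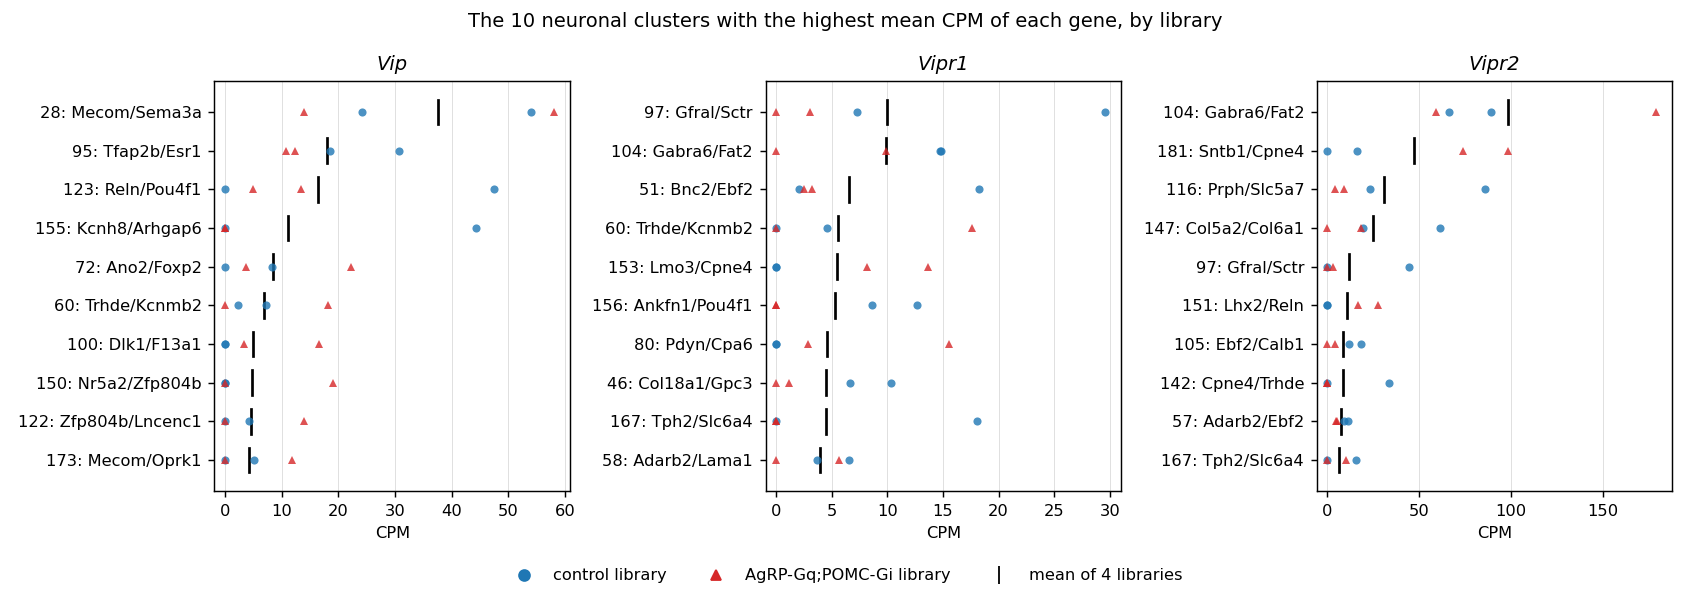
CPM by library of *Vip*, *Vipr1* and *Vipr2* in those 10 of the 120 neuronal clusters with the highest mean of each gene, with a bar at the mean of 4 libraries. *Vip* in 28: Mecom/Sema3a and 95: Tfap2b/Esr1 and *Vipr2* in 104: Gabra6/Fat2 are above 0 in every library, whereas most other clusters have libraries at 0.

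Ligand and receptor were also compared within nuclei. Neurons with at least 2 *Adcyap1* UMIs numbered 297, and 83 of them (27.9%, 95% exact interval 22.9% to 33.4%) held an *Adcyap1r1* UMI, against 23.7% (22.9% to 24.4%) of the 12242 other neurons. Intervals cover counting error only, and nuclei of a library are not replicates. The *Adcyap1* neurons were deeper, with a median of 11097 against 8655 UMIs, and thinned to 2000 UMIs the shares were 8.14% (5.28% to 11.9%) and 5.52% (5.12% to 5.94%). By library the unthinned share in *Adcyap1* neurons was 41.7%, 35.7%, 27.3% and 17.4% in C1, C2, A1 and A2, against 21.5% to 26.2% in the other neurons. Thinned, it was 6.67%, 10.7%, 13.8% and 4.39%, so the order of the libraries was not kept. *Vipr1* was found in 9 of the 297 (3.03%, against 1.01%) and *Vipr2* in 5 (1.68%, against 1.45%). Thinned, either receptor gene was left in 1 nucleus of 295. *Adcyap1r1* was thus detected in *Adcyap1* neurons at a share that was not resolved from that in other neurons over libraries.

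Across the 120 clusters the log2 levels of *Adcyap1* and *Adcyap1r1* had Pearson's r = -0.20 and Spearman's rho = -0.15, which describes clusters of the same 4 libraries and is not a test. The genes whose pattern over clusters was most like that of *Adcyap1*, of 12115 genes, were *Cacna2d1* (r = 0.72), a calcium channel subunit, *Slc17a6* (r = 0.69) and *F13a1* (r = 0.68). For *Adcyap1r1* they were *4930415C11Rik* (r = 0.52), *Elac1* (r = 0.50) and *Ntrk2* (r = 0.48), the TrkB receptor gene. For *Vip*, *Vipr1* and *Vipr2*, which had no UMI in 70, 62 and 61 clusters, the closest genes reached only r = 0.39, 0.40 and 0.40.

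The design asks whether activation of AgRP neurons with inhibition of POMC neurons changed transcripts in the hindbrain. UMIs were summed per library and the groups compared with edgeR's quasi-likelihood test over all genes detected in 5% or more of the nuclei, with Benjamini-Hochberg adjustment. In neurons 0 of 12115 genes were called at an adjusted p of 0.05 (0%), 667 had an unadjusted p under 0.05, and DESeq2 called 10, none of them a member. This count was unstable: a replicate block gave 168 and single libraries left out gave 3 (without C1), 17 (without C2), 29 (without A1) and 2017 (without A2), and again no member was called. *Adcyap1* was at 11.8 ± 0.54 CPM in neurons of control libraries and 13.5 ± 3.89 CPM in those of A1 and A2 (n = 2 each), and the libraries overlapped. In oligodendrocytes, taken as background, it was at 2.49 ± 0.62 and 4.53 ± 0.75 CPM. The part of background in the neuronal difference was not tested. In neurons the log2 fold change of *Adcyap1* was 0.24 (SE 0.17, edgeR adjusted p = 0.815), and without A2, the library low in *Xist*, it was -0.02. *Adcyap1r1* was at 29.9 ± 0.55 and 28.4 ± 0.81 CPM, with a log2 fold change of -0.02 (SE 0.08, edgeR adjusted p = 0.974). Both control libraries were higher than A1 and A2 by CPM, and with library size in place of TMM scaling factors the log2 fold change was -0.07 (SE 0.10, adjusted p = 0.874).

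*Vip*, *Vipr1* and *Vipr2* were below the 5% minimum in neurons and entered only the fits without it. There their log2 fold changes were 0.15 (SE 0.44), -0.22 (SE 0.29) and -0.05 (SE 0.24), with edgeR adjusted p of 0.969, 0.903 and 0.979. Levels were also computed with each of the 120 clusters at the same weight in each library, so that differing cluster shares could not move them. The 14 smaller neuronal clusters were left out of this. *Adcyap1* was then at 12.4 ± 1.14 and 12.8 ± 1.83 CPM and *Adcyap1r1* at 30.3 ± 0.60 and 29.1 ± 0.70 CPM in the 2 groups. With 2 libraries a group, an exact two-sided permutation test cannot go below p = 0.333, so it could not pass a threshold of 0.05 for any member.

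**Figure D4:**
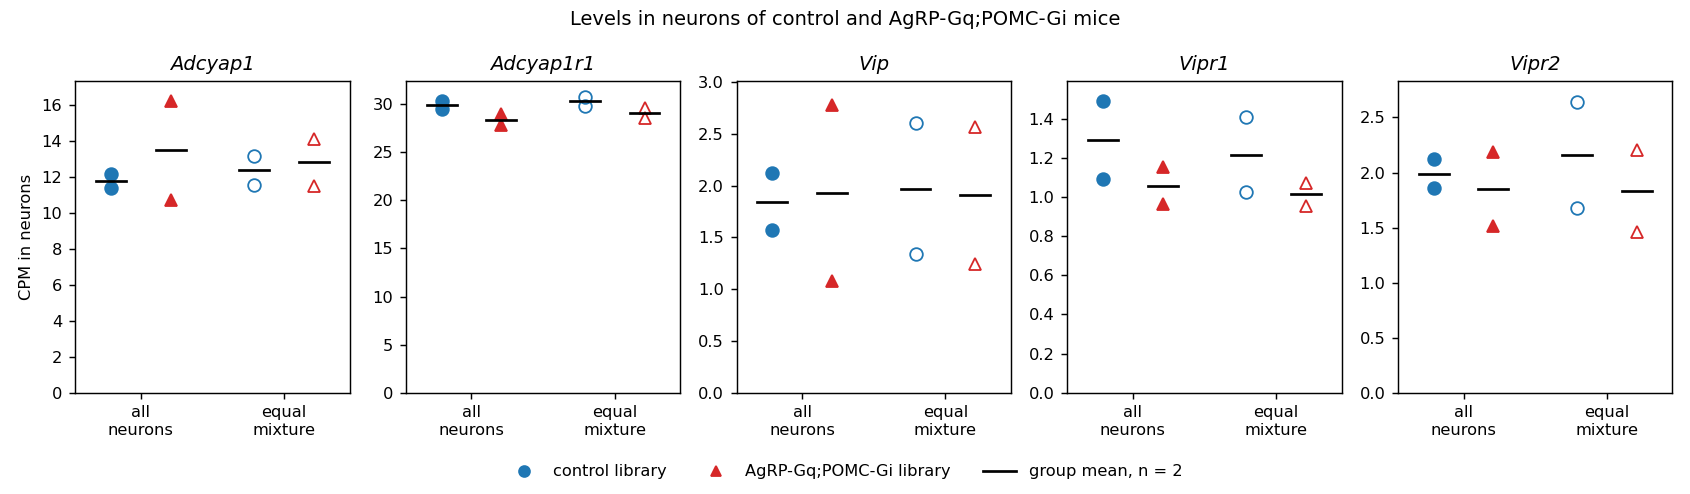
CPM of each member in neurons of control libraries (circles) and AgRP-Gq;POMC-Gi libraries (triangles), with bars at the group means. Filled symbols are all neurons, and open symbols have the same mixture of 120 clusters in every library. Only *Adcyap1r1* has groups that do not overlap in both forms, with means of 29.9 and 28.4 CPM. Its exact permutation p is 0.333, the lowest that 2 libraries a group allow, and the share of all genes that separate so was not counted. The axes start at 0.

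Over the 13 cell types that could be tested, neurons included, 112 of 101074 pairs of gene and cell type were called (0.111%). Of the members, *Adcyap1r1* passed the 5% minimum in 6 types, *Adcyap1* in 1 and *Vipr2* in 1, and none of these 8 pairs was called or had an unadjusted p under 0.05. *Adcyap1r1* in astrocytes had a log2 fold change of 0.20 (SE 0.12, edgeR adjusted p = 0.618), from 62.5, 66.2, 69.0 and 74.8 CPM in C1, C2, A1 and A2. In tanycyte-like nuclei it was 0.44 (SE 0.46, adjusted p = 0.95) and in OPC 0.06 (SE 0.23, adjusted p = 0.995). Of all genes tested, 0.751% were called in mural cells, 0.0444% in OPC and 0% in tanycyte-like nuclei and in Oligodendrocytes/OPC, where edgeR and DESeq2 both called 0 genes and edgeR's unadjusted p was under 0.05 for 533 and 120. *Vipr2* in OPC was at 0.50 (SE 0.37, adjusted p = 0.918).

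Over the 120 neuronal clusters tested, 541 of 1396489 pairs of gene and cluster were called (0.0387%). The members entered 191 such pairs, 57 for *Adcyap1*, 118 for *Adcyap1r1*, 6 for *Vip*, 2 for *Vipr1* and 8 for *Vipr2*. None was called by edgeR, and 13 (6.81%) had an unadjusted p under 0.05, against 62946 (4.51%) of all pairs. The 5% minimum counts nuclei of both groups together, so a pair can enter through the group where the gene is high. DESeq2 was not run on single clusters.

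The lowest adjusted p belonged to *Vipr2* in cluster 116: Prph/Slc5a7, at 86.2, 23.5, 4.32 and 8.98 CPM in C1, C2, A1 and A2, from 11, 5, 2 and 4 UMIs. The log2 fold change was -2.69 (SE 0.73, edgeR adjusted p = 0.0897), and over 7 alternatives the adjusted p ran from 0.00455 to 0.778, with 3 below 0.05. *Adcyap1* in the same cluster was at 7.83, 32.8, 62.7 and 80.8 CPM, a log2 fold change of 1.75 (SE 0.54, edgeR adjusted p = 0.194, from 0.0472 to 0.632 over 8 alternatives). For both genes the groups did not overlap, in opposite directions. How many of all genes in this cluster separate in this way was not counted, so the separation by itself is not taken as a result. The cluster holds 82 nuclei, 9, 17, 24 and 32 by library, with *Prph*, *Chat* and *Slc5a7* (peripherin, the acetylcholine-synthesising enzyme and the choline transporter), genes known from cholinergic motor and preganglionic neurons.

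In cluster 116 a UMI of *Adcyap1* was found in 34 nuclei and of *Vipr2* in 12, and 0 nuclei held both. A nucleus without a UMI may still express the gene. The overlap that detection this sparse would give by chance was not computed, so separate nuclei are not established. Nuclei with *Adcyap1* numbered 1, 3, 17 and 13 in C1, C2, A1 and A2. *Vipr2* was in 3, 3, 2 and 4 nuclei, so that the 11 UMIs behind the high level in C1 came from 3 nuclei. Of the cholinergic markers, *Chat* was at 204, 178, 127 and 146 CPM, whereas *Prph* (235, 253, 233 and 290 CPM) and *Slc5a7* (329, 230, 294 and 276 CPM) overlapped between the groups. A different share of 2 kinds of nuclei within the cluster and a changed level per nucleus cannot be told apart from these sums, and the part of the nuclei's makeup in both differences was not tested.

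**Figure D5:**
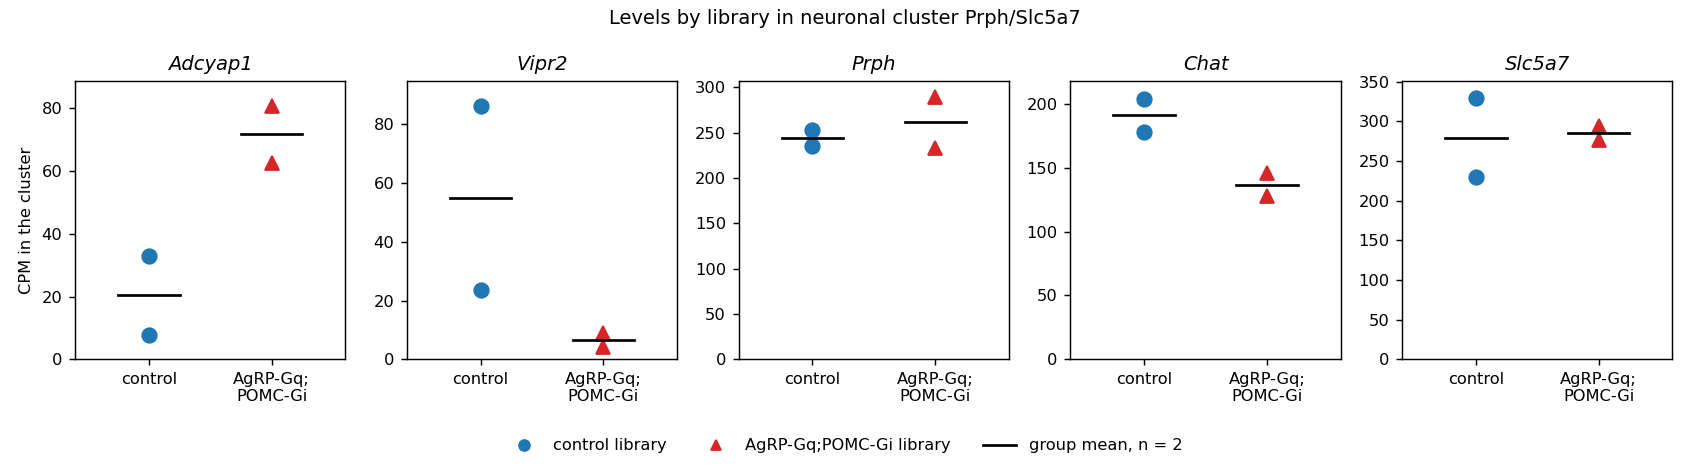
CPM by library of *Adcyap1*, *Vipr2*, *Prph*, *Chat* and *Slc5a7* in neuronal cluster 116, with circles for control libraries, triangles for AgRP-Gq;POMC-Gi libraries and bars at the group means. *Adcyap1* is higher and *Vipr2* and *Chat* lower in both AgRP-Gq;POMC-Gi libraries than in both control libraries, and for *Prph* and *Slc5a7* the groups overlap. How many of all genes in the cluster separate in this way was not counted.

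The other pairs with an unadjusted p under 0.05 had edgeR adjusted p of 0.454 or more. They include *Vipr2* and *Adcyap1r1* in 181: Sntb1/Cpne4, a glutamatergic cluster of 30 nuclei. *Vipr2* was there at 16.2, 0, 74.0 and 98.3 CPM in C1, C2, A1 and A2 (1, 0, 6 and 11 UMIs), and *Adcyap1r1* at 0 in both control libraries and at 74.0 and 35.7 CPM in A1 and A2 (6 and 4 UMIs). *Adcyap1r1* thus entered this test only through A1 and A2, and its p is not taken as support for a difference. Among the 57 clusters tested for *Adcyap1* the log2 fold change was positive in 33 and negative in 24 (median 0.15), and for *Adcyap1r1* positive in 54 and negative in 64 (median -0.08).

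The pathway downstream of these receptors was counted in lists of genes chosen for their known role, in neurons and in astrocytes. In neurons the tests covered 11 of 12 genes of Gs and adenylyl cyclases, 13 of 14 of protein kinase A, Epac and CREB, 14 of 15 cAMP phosphodiesterases, 7 of 7 of peptide processing and 1 of 10 other secretin family genes, and 0 of 3 receptor activity modifying proteins reached the minimum. None of these genes was called in either direction by edgeR, and none had an unadjusted p under 0.05. The median log2 fold changes were -0.03 for cyclases, -0.02 for the kinase list, 0.03 for phosphodiesterases and 0.19 for peptide processing, beside -0.000282 over all genes tested. The peptide processing list, 6 of whose 7 genes had a positive value, includes *Pcsk2*, the convertase that cuts many neuropeptide precursors, with 434, 414, 441 and 489 CPM in neurons of C1, C2, A1 and A2 (log2 fold change 0.19, SE 0.09, edgeR adjusted p = 0.810), and *Pam*, which amidates peptides including PACAP and VIP (0.19, SE 0.09, adjusted p = 0.810). *Prkar1b* and *Prkaca*, subunits of protein kinase A, had values of -0.14 (SE 0.06) and -0.15 (SE 0.08), and the cyclase genes *Adcy8* and *Adcy5* 0.20 (SE 0.10) and -0.14 (SE 0.08), each with an edgeR adjusted p of 0.810. The phosphodiesterase genes *Pde1b* and *Pde3b* were at -0.15 (SE 0.10) and 0.13 (SE 0.09), with an edgeR adjusted p of 0.813. Among other family genes *Glp2r*, the receptor of GLP-2, was tested (0.22, SE 0.13, adjusted p = 0.810).

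In astrocytes, where 53 of 8462 genes were called (0.626%), the same lists had 6, 12, 9, 6 and 0 genes tested and 1 modifying protein, *Ramp1*, and again none was called by edgeR. Unadjusted p was under 0.05 for 2 cyclases, 3 phosphodiesterases and 1 gene of peptide processing, beside 875 of all 8462 genes tested (10.3%). *Pde10a*, a phosphodiesterase of cAMP and cGMP, was at 51.9, 50.9, 68.7 and 122 CPM in C1, C2, A1 and A2 (log2 fold change 0.92, SE 0.18, edgeR adjusted p = 0.0520). *Adcy8*, a calcium-stimulated cyclase, was at 249, 257, 409 and 361 CPM (0.66, SE 0.15, edgeR adjusted p = 0.0758), and *Adcy9* at 78.3, 84.0, 60.9 and 59.1 CPM (-0.39, SE 0.13, adjusted p = 0.246). For these 3 genes, and for *Pde8b*, *Rapgef4* and *Ramp1*, the groups did not overlap. All of them were named for their low p, and the share of all genes tested whose groups do not overlap was not counted. Over all libraries *Pde10a* was at 744 CPM in neurons and 73.4 CPM in astrocytes, and whether neuronal transcripts entered the astrocyte counts was not tested. *Pde8b*, *Scg2*, *Prkar2a*, *Rapgef4*, *Chgb* and *Ramp1* had log2 fold changes of 0.35, 0.40, 0.28, 0.30, 0.38 and -0.18, with edgeR adjusted p from 0.234 to 0.640.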

How the data were processed

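Per the labels and the study's methods, the authors sorted 20000 particles per library, prepared 10x Genomics 3′ libraries and counted UMIs on GRCm38 with Cell Ranger 7.0.0, and the deposited matrices hold these counts, not normalized. Whether intronic reads were counted, and by which strand, is not given in the sources used here. The authors' deposited table of nuclei, made with Seurat 4.3.0, gives clusters, cell types, the nuclei that passed their quality filter (at least 800 UMIs and 500 genes) and the mitochondrial percent, for which their limit was 10%. The authors also ran a doublet caller, and no further doublet step was taken here. Totals of UMIs and genes from the matrices matched this table for 44303 of 44303 barcodes, and 0 kept nuclei fell outside these limits.

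UMIs were summed per library and cell type or cluster and scaled to CPM. Groups were compared with edgeR 4.0.16 (TMM, quasi-likelihood) in R 4.3.3 where each library had at least 5 nuclei, which left out the choroid plexus (2 nuclei in the smallest library) and 14 neuronal clusters. DESeq2 1.42.0 was run for cell types. Shares were recomputed with nuclei thinned to 800 UMIs (cell types) or 2000 UMIs (neurons, 166 of 12539 left out). Intervals are exact 95% binomial intervals, and a count of 0 was given a limit of 3 counts. The edgeR fit was tested on simulated data for neurons, OPC and cluster 65. Promoter windows and positions were matched by symbol or identifier for 5 of 5 members. Protein sequences were not analysed here, and a marker gene and a cluster are not reported here.

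The members, the gene lists and the tests were chosen with earlier results of these data known. Named clusters are, for each member, the 5 with the highest mean CPM among clusters with 5 or more nuclei in each library. Clusters 63, 82, 109, 148 for *Adcyap1r1*, 154, the glial clusters 20, 21, 61 and 141, and the split of nuclei in cluster 116 were added after their values were seen. Named pathway genes are the 2 with the lowest p in each list. Alternatives were library size without TMM, DESeq2, no filter on genes, filterByExpr, a replicate block and fits that lacked each library in turn, and the cluster mixture held equal was added after the data were seen. Python 3.11.15, numpy 2.4.6, pandas 2.3.3, scipy 1.17.1 and matplotlib 3.10.9 were used.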

Additional observations from a re-analysis of the deposited data

How the results depend on the processing

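Between groups, the number of genes called in all neurons, 0 in edgeR with TMM, was 10 with DESeq2, 1 without the filter on genes and 1 with filterByExpr. Leaving out single libraries gave 3 to 2017 called genes, 3 without C1, 17 without C2, 29 without A1 and 2017 without A2, and the cause was not tested. No member was called in neurons or in any other cell type in any of these fits. Leaving out C2, cluster 116 gave 2 called pairs, *Vipr2* and *Adcyap1*, and leaving out any other library gave 0. *Vipr2* there was also the 1 pair called without the filter on genes. Replicate numbers pair no known mice, but both libraries numbered 1 had few choroid plexus nuclei and both numbered 2 had many. There were 2 and 6 in C1 and A1 and 436 and 329 in C2 and A2. Whether equally numbered libraries were prepared together is not known. Deviations of equally numbered libraries correlated at 0.18 in neurons, and a replicate block gave 168 called genes in neurons and 1 called pair of member and cluster, *Vipr2* in cluster 116, and changed no other call on a member. With single libraries left out, the log2 fold change of *Adcyap1* in neurons ran from -0.019 (without A2) to 0.47 (without A1). That of *Adcyap1r1* then ran from -0.042 to 0.012, with 0.006 without C1 and 0.012 without A2. For *Adcyap1r1* it was -0.07 with library size without TMM and -0.06 with the cluster mixture held equal.

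The number of clusters that bear a gene depended on depth and on the share asked for. With at least 20% of nuclei it was 16 for *Adcyap1*, 1 for *Vip* and 1 for *Vipr2*, with at least 5% it was 1 for *Vipr1*, and with no demand for a UMI in every library it was 4 for *Vipr2*. With nuclei thinned to 2000 UMIs, which lowers every share, it was 6 for *Adcyap1*, 4 for *Adcyap1r1*, 0 for *Vip* and 1 for *Vipr2*. Without single libraries *Vip* was borne by 1 (without C1) to 2 clusters. With 10-fold in place of 4-fold between *Slc17a6* and *Slc32a1*, the log2 ratio of *Vipr1* between glutamatergic and GABAergic neurons was 0.70, and for *Vipr2* no ratio could be given, since a library had 0 UMIs in the fewer GABAergic clusters. The share of *Adcyap1* neurons with an *Adcyap1r1* UMI was 24.5% without C1 and 34.6% without A2, and thinned to 2000 UMIs it was 8.14%, and 0.339% for *Vipr1* and 0.339% for *Vipr2*. Summing UMIs over libraries moved each member's level in its highest cluster by less than 1 SD. The same held in its highest cell type among those with a UMI in every library. Leaving out 1 of 4 libraries cannot move their mean by 1 SD, so this measure could not show whether a level rests on a single library. With an SD of 13.4 CPM, *Vipr1* in cluster 97 went from 9.98 to 3.46 CPM without C1 and to 4.91 CPM with UMIs summed. Among cell types with a UMI in every library kept, *Vip* without A1 was higher in astrocytes (1.70 CPM) than in neurons (1.59 CPM). Without C1 cluster 104 (8.19 CPM) came first for *Vipr1*.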
